A study of Mus musculus with 12 samples.

Results

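The comparison described here sets Hdac3-null liver against control liver of mice at postnatal day 28 (P28). Its members are the 3 arrays titled P28 Hdac3 null and the 3 titled P28 Hdac3 control, 6 of the 12 arrays of the series, and the differences are described across 33011 probes. RNA of livers of C57B/6 mice was combined in pools of 5 mice and measured as digoxigenin-labelled cRNA on single-colour ABI1700 arrays. Null livers had lost Hdac3. The control mice were Hdac3 wild-type in the first pool and wild-type or heterozygous in the second, and carried the Albumin-Cre transgene, in which the albumin promoter drives Cre recombinase in hepatocytes. The labels of the null pools name the deletion and no Cre line, and the series design gives no sex. Each genotype had 2 pools. The first was hybridised on 2 arrays of different chip lots, which were averaged, and the second on 1 array, so n = 2 pools per genotype. P-values therefore rest on the differences among these few pools. The deposited values of the first and the second pools also had separate distributions.

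Histone deacetylase 3 is the catalytic subunit of the NCoR and SMRT corepressor complexes, which nuclear receptors bring to chromatin when no activating ligand is bound. In hepatocytes these receptors include the thyroid hormone receptors, the retinoid partner RXR and the fasting sensor PPAR alpha. Histone deacetylase 3 is known in these cells for holding down genes of lipid synthesis and storage. The question put to these arrays is which liver transcripts differ at P28, shortly after weaning, when the gene has been deleted.

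What can be named on this array is limited. Of 33012 probes, 27930 carry only a Celera identifier (mCG) and 4518 a cDNA clone identifier, and 317 probes of 311 genes could be given a gene symbol through the RefSeq table of assembly GRCm38.p6. None of them carries the symbol Hdac3, so the deletion itself was not checked here. The defining hepatocyte markers of the marker list (albumin, transthyretin, apolipoprotein A1 and others) are not among the named probes either. Mup1, a major urinary protein secreted by hepatocytes, stood at the 99.9th percentile of P28 signal, Cebpb, a hepatocyte transcription factor, at the 99.1th in its brighter probe, and the erythroid haemoglobin gene Hba-a1 at the 99.6th. Because RNA came from the whole tissue, a lower signal from fewer cells of a type and from less RNA per cell cannot be told apart.

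Signal is given as log2 of the normalized intensity, on which 1 unit is a doubling. A low-signal level of 9.91, reached by 40% of all values, marks off the dim probes. It is a convention, since the scanner's own detection scores carry no sample name. Of 39 olfactory receptor, 12 vomeronasal receptor, 9 hair keratin or keratin-associated and 4 milk protein probes, genes made in other tissues, 5 of 64 had a mean P28 signal at or above this level. Duplicate arrays of 1 pool correlated with r = 0.966 in control and 0.980 in null liver, while arrays of separate pools of a genotype correlated with r = 0.890 to 0.899, over 12030 probes at or above the level. The deposited values fall into 3 sets of arrays with a shared distribution, called run sets here: at P28 the first pools of both genotypes form one set, and the second pools lie in another together with the P17 second pools. Every difference within a pool number therefore lies within 1 run set. For the second null pool at P28, the attached scanner file duplicates the export belonging to the first pools, whereas the value table groups that array with the second pools. The placement of the value table was used, and the counts are also given without this pool.

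The sequences that bear on the named results are shown first. They are the windows from 250 bases before to 30 bases after the RefSeq start of Wfdc2 and Dpp9, which were called over all probes, and of Hsd3b4, which had the largest difference among ranked named genes. The third called gene, Lgals1, is named only. Capitals mark AGGTCA, the core hexamer that many nuclear receptors bind.
Wfdc2, GRCm38.p6 chr2:164562465-164562744, plus strand: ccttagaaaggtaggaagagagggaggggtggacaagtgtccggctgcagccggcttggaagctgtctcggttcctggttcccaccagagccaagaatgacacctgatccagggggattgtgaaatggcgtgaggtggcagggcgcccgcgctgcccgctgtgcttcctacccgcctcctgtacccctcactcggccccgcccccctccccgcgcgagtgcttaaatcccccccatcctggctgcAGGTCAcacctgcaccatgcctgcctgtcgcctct
Dpp9, GRCm38.p6 chr17:56218860-56219139, minus strand: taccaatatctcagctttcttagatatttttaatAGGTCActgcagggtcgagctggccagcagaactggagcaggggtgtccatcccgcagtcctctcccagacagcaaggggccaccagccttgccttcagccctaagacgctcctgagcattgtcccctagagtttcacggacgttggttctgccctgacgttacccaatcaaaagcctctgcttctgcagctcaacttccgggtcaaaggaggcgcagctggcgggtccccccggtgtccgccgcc
Hsd3b4, GRCm38.p6 chr3:98510538-98510817, minus strand: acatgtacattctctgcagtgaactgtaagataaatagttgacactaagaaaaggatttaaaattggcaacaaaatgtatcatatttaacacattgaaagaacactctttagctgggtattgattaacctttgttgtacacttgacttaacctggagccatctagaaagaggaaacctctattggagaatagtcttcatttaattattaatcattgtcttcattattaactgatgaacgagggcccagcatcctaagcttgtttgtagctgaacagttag

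The search covered both strands for AGGTCA and for TGANTCA, the site bound by AP-1 factors such as Jun. The hexamer begins 5 bases before the start of Wfdc2 and 216 bases before that of Dpp9, both on the gene's own strand, and no match lies in the Hsd3b4 window. Of 27025 genes with a window of the same length, 15.2% hold AGGTCA and 7.57% hold TGANTCA, which is in none of the 3 windows. The windows differ in base composition, with a GC content of 64.6% for Wfdc2, 57.9% for Dpp9 and 34.3% for Hsd3b4, against a median of 52.5%. Among the 30 named genes described further down, 25 have a window: AGGTCA is in 3 of 12 with a higher and 3 of 13 with a lower signal in null liver, and TGANTCA in 1 of 12 and 0 of 13. These matches describe the letters only.

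Across all probes, P28 null liver had both strongly higher and strongly lower signals. The median difference (null minus control) was 0.00 on the log2 scale, which the normalization to a shared distribution sets, so a shift common to all probes could not be seen. Differences are relative to it, and 1% of probes lay at or below -1.85 and 1% at or above 1.90. Differences seen in the first pools recurred in the second where signal was high. Over 12052 probes with a mean P28 signal at or above the low-signal level, the pool differences correlated with r = 0.70 (Spearman 0.62), and 72.1% had the same sign. Over the 20451 dimmer probes r was 0.08 and 49.3% had the same sign. These correlations run across probes, which share arrays and are not independent. In the brighter set 4350 probes (36.1%) were higher and 4344 (36%) lower in null liver in both pools. A difference of at least 1 unit in both pools was reached upward by 642 probes (5.33%) and downward by 566 (4.7%), while 35 differed by at least 1 unit in opposite directions. At 3 units or more in both pools there were 47 probes upward, 36 downward and 0 in opposite directions.

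**Figure D1:**
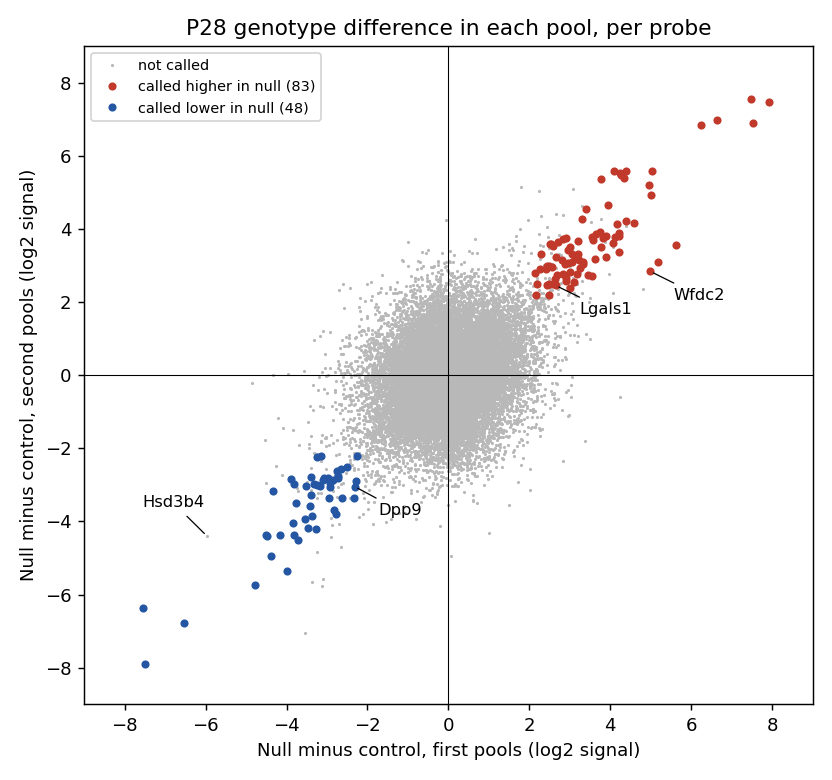
Each point is a probe, with null minus control in the first pools on the x axis and in the second pools on the y axis, both in log2 signal. The 83 probes called higher (red) and 48 called lower (blue) lie along the diagonal, and grey points are probes not called, Hsd3b4 among them.

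In limma's moderated test over 33011 probes, 131 probes (0.397%) had a Benjamini-Hochberg adjusted p under 0.05. Of these, 83 (0.251%) were higher and 48 (0.145%) lower in null liver. The pool differences of these probes lay a median of 0.42 apart and at most 2.15 apart and had the same sign throughout, which the test itself favours. The 83 higher probes differed by 2.18 to 7.70 units (median 3.26), and the 48 lower probes by -2.23 to -7.70 (median -3.26). Before adjustment, 3076 probes (9.32%) had a p under 0.05. All 4 P28 pools gave a value for each called probe, and 1 called probe lacked 1 array.

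The calls lay among probes with a higher mean P28 signal, but this mean includes the arrays on which a called probe is high. Values stop at a floor of 7.45, and every called probe differed by at least 2.18 units. The dimmest bin described next ended at 8.34, so it could hardly hold a difference of that size. The bin after it, up to 9.07, could hold such a difference only with a group near the floor. The counts by bin therefore cannot show whether calls favour brighter genes. When probes were divided into 4 bins of equal size by mean P28 signal, the 2 dimmer bins gave 0 calls each by limma, the third (9.07 to 11.48) 29 higher and 13 lower, and the brightest 54 higher and 35 lower. The share with the same sign in both pools was 45.7% and 50% in the dimmer bins, 59.6% in the third and 75.7% in the brightest, where the pool correlation was 0.83. Duplicate arrays of a pool differed with an SD of 1.06 in the second and 1.02 in the third bin, but 0.30 in the brightest. Among the higher probes, 26 of 83 were under the low-signal level on all 3 control arrays, and among the lower probes 15 of 48 were under it on all 3 null arrays, so that their size is known only as a lower bound.

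**Figure D2:**
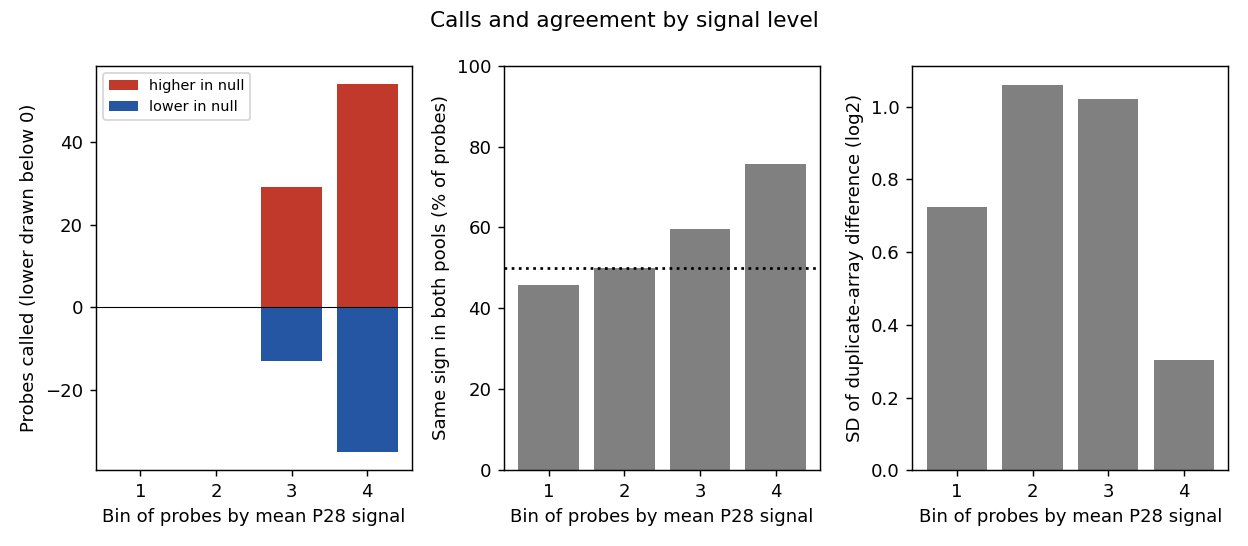
Probes are divided into 4 bins by mean P28 signal (1 dimmest, 4 brightest). This mean includes the arrays on which a called probe is high, so the counts by bin depend in part on the calls. The bars show the number called higher (red) or lower (blue), the percentage with the same sign in both pools (dotted line at 50%) and the SD of the difference between duplicate arrays in log2 signal; calls begin in bin 3, and the spread of duplicates is lowest in bin 4, at 0.30.

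The number of calls depends on which pools enter the fit. By limma it was 15 without either P17 control pool and 28 without either P17 null pool, which lend only their spread, 7 without the P28 control first pool, 5 without the P28 null first pool and 0 without the P28 control second pool or the P28 null second pool. With a block for the run set 5 probes were called, 3 higher and 2 lower. With the pool number as a replicate block 246 were called, 146 higher and 100 lower, of which 129 were shared with the 131. The run set block leaves fewer residual degrees of freedom than the main fit. With it 4947 probes had an unadjusted p under 0.05 in limma, against 3076 in the main fit.

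Probes that share an identifier offer a repeat within the array, since the design assigns them to 1 target. There were 550 identifiers with 2 probes at or above the low-signal level, and the P28 differences of their probes correlated with r = 0.67 across identifiers, with the same sign in 375 (68.2%). In 11 of these pairs at least 1 probe was called, in 6 both were, and 10 of the 11 pairs had the same sign. The target mCG1041532.1 was higher by 4.30 and 4.96 units in its probes (adjusted p = 0.018 and 0.023, limma), and mCG132864.1 lower, at -4.68 and -3.35 (0.018 for each). In the pair that disagreed, mCG142672, the probes gave 2.72 (adjusted p = 0.037) and -0.52 (0.77). These 3 targets were picked after their values were seen.

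The largest changes belonged to targets without a gene name. mCG119412.1 read 8.90, 8.03 and 9.80 on the control arrays (first pool in duplicate, then second pool) and 16.51, 16.26 and 17.27 on the null arrays, all control values being under the low-signal level. It was at least 121-fold higher in null liver (limma log2 difference 7.70, SE 0.67, adjusted p = 0.014). mCG2777.1 read 9.51, 9.48 and 10.80 in control and 16.95, 17.00 and 18.35 in null liver, a fold of 158 with the 2 control arrays under the level raised to it (7.51, SE 0.91, adjusted p = 0.026). In the other direction mCG20398.1 went from 16.42, 16.61 and 16.33 to 8.37, 9.68 and 8.43, under the level on all null arrays. It was at least 91.2-fold lower (-7.70, SE 0.69, adjusted p = 0.014). mCG132777.1 fell between levels that were both well within the measured range, from 19.37, 19.14 and 19.96 to 12.66, 12.77 and 13.18, which is 101-fold (-6.66, SE 0.41, adjusted p = 0.0038). For these 4 targets the genotypes were separated on every array by more than 5 units.

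Among the 317 named probes, 131 had a mean P28 signal at or above the low-signal level, 49 of them higher in null liver in both pools, 51 lower in both, and 31 with opposite signs. All null arrays lay above all control arrays for 24 of the 131 (18.3%, against 15.5% of all probes at that level and 9.19% at any level) and below them for 25 (19.1%, against 14.7% and 8.64%). A difference of at least 1 unit in both pools was seen upward in 11 (8.4%, against 5.33%) and downward in 7 (5.34%, against 4.7%). These shares are near those of all probes. These 131 named probes had a median difference of -0.02. Of them 3 were called, against 119 of the 12052 probes at that level and 0.397% of probes at any level. Whether these call shares differ was not tested. The 15 named genes with the largest recurring positive and the 15 with the largest recurring negative difference, ranked by the smaller of their pool differences, are described by role in the following paragraphs. They were chosen by this difference, so its direction in them is a description. The last gene inside the rule upward was Atox1 (0.85 and 0.71 in the first and second pools) and the first outside was Cdc42ep1 (1.10 and 0.70). Downward they were Nars2 (-0.53 and -1.17) and Krt23 (-1.31 and -0.51).

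**Figure D3:**
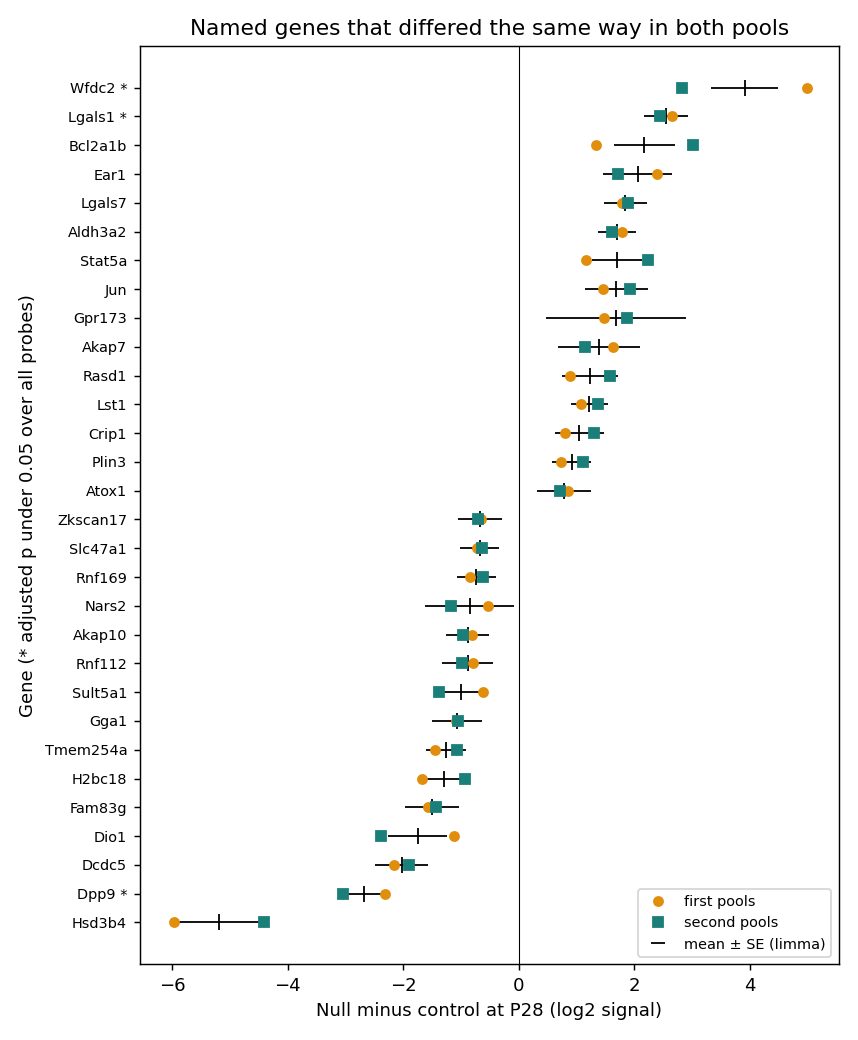
Null minus control at P28 in log2 signal for the 30 ranked named genes, with circles for the first pools, squares for the second pools and bars for the limma mean ± SE. Wfdc2, Lgals1 and Dpp9 (asterisks) passed the adjusted p of 0.05 over all probes, and Hsd3b4 had the largest difference, -5.18.

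Wfdc2 and Lgals1 were the named genes called higher. Wfdc2, a secreted whey acidic protein-type protease inhibitor of epithelia, read 9.67, 8.79 and 10.85 in control and 14.23, 14.21 and 13.69 in null liver. The genotypes did not overlap, and 1 of 3 control arrays reached the low-signal level. Wfdc2 rose from 10.04 ± 1.14 to 13.95 ± 0.38 (SD, n = 2 pools; limma log2 difference 3.91, SE 0.58, adjusted p = 0.049). With the dim control arrays raised to the level its fold was 11.9, and the rise was 4.99 between the first pools and 2.84 between the second. Lgals1, the galectin-1 gene, encodes a lectin that binds beta-galactosides outside the cell. It read 12.68, 12.64 and 12.98 in control and 15.33, 15.29 and 15.43 in null liver, with more than 2 units between the nearest arrays. Lgals1 rose 5.86-fold (limma log2 difference 2.55, SE 0.38, adjusted p = 0.049). Lgals7, which encodes galectin-7 of stratified epithelia, read 11.20, 10.84 and 10.43 in control and 12.82, 12.80 and 12.32 in null liver. Its difference of 1.84 (SE 0.37) was alike in both pools, 1.79 and 1.90, but missed the threshold over all probes (adjusted p = 0.12, limma). It passed when only probes with a mean over all arrays at or above the low-signal level were tested (0.038). Lgals2, the other measured galectin, was under the low-signal level on all 6 arrays. The progenitor and bile duct keratin Krt23, the other measured member of the marker list that holds Wfdc2, differed by -0.91 (SE 0.61, adjusted p = 0.75, limma). Of that list's 10 genes these were the 2 measured, and what bile duct cells contribute to the values was not tested.

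Dpp9, a cytosolic serine protease that removes dipeptides after proline, was the only named gene called lower. It read 16.13, 16.39 and 16.93 in control and 13.896, 13.996 and 13.885 in null liver. The null arrays lay close together and more than 2 units under every control array. Dpp9 fell 6.42-fold, from 16.60 ± 0.47 to 13.92 ± 0.04 (SD, n = 2 pools; limma log2 difference -2.68, SE 0.36, adjusted p = 0.035), by 2.32 between the first pools and 3.05 between the second. None of the calls of Wfdc2, Lgals1 and Dpp9 held without any single one of the 8 pools, nor with the run set as a block (adjusted p = 0.11, 0.089 and 0.082, limma). All of these calls were also lost with the deposited values, the P28 pools alone and technical replicate 1 alone, those of Wfdc2 and Lgals1 with 75th percentile scaling and technical replicate 2 alone, and that of Lgals1 with quantile normalization within each age. Under the settings that kept all pools, their log2 differences ran from 3.7 to 4.12, from 2.54 to 2.58 and from -2.72 to -2.64.

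Of the ranked enzymes and transporters, Hsd3b4, Dio1, Slc47a1 and Sult5a1 had lower values in null liver in both pools. None of them passed the test over all probes. Hsd3b4, of the 3-beta-hydroxysteroid dehydrogenase family of steroid-converting enzymes, read 15.05, 15.11 and 15.07 in control and 9.46, 8.77 and 10.67 in null liver. The control arrays were almost equal, and 1 of 3 null arrays reached the low-signal level. The difference of -5.18 (SE 0.82) corresponds to a fold of 27.5 with the dim arrays raised to the level. It missed the threshold (adjusted p = 0.060, limma) and passed it with the replicate block by pool (0.022), the offset (0.042), both signal filters (0.036 and 0.047) and eBayes with trend and robust. Members of this family are near-identical in sequence, so the probe's value is uncertain for the single gene. Dio1, the deiodinase that converts thyroxine to the active thyroid hormone and is itself a target of that hormone, read 16.21, 16.46 and 16.49 in control and 15.18, 15.26 and 14.10 in null liver. The groups were apart on every array, with a difference of -1.75 (SE 0.50, adjusted p = 0.27, limma). Slc47a1, the MATE1 exporter of organic cations into bile, differed by -0.68 (SE 0.33) and the sulfotransferase Sult5a1 by -0.996 (SE 0.45).

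Not all enzymes pointed that way. Aldh3a2, described in the next paragraph, and G6pc were higher in null liver in both pools. G6pc, the glucose-6-phosphatase that releases glucose from the liver, read 16.33, 16.05 and 15.71 in control and 16.88, 16.89 and 16.81 in null liver, a difference of 0.89 (SE 0.35, adjusted p = 0.47, limma). Nat8f2, of the N-acetyltransferase family, was instead lower in null liver in both pools, like Hsd3b4 and Dio1, at -0.40 and -0.69 (mean -0.54, SE 0.35). Mup1 was at the top of the range in both genotypes, at 20.86, 21.01 and 20.23 in control and 19.98, 19.86 and 20.84 in null liver. Its sign turned between pools, -1.01 in the first and 0.61 in the second, so no direction can be given. The Mup1 probe can read several near-identical major urinary protein genes.

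The measured genes of the fatty acid oxidation and lipid droplet lists, Aldh3a2, Fgf21 and Plin3, had higher means in null liver without passing the test over all probes. Aldh3a2, the fatty aldehyde dehydrogenase of the endoplasmic reticulum, read 14.50, 14.25 and 14.31 in control and 16.18, 16.16 and 15.92 in null liver. Its arrays were tight within each genotype and did not overlap between them. The difference was 1.70 (SE 0.33, adjusted p = 0.11, limma), and 0.027 when only probes with a mean over all arrays at or above the low-signal level were tested. Testing probes above the median (0.043) and eBayes with trend and robust (0.013) called it as well. Plin3, a coat protein of lipid droplets, read 14.21, 13.89 and 13.90 in control and 14.71, 14.84 and 15.01 in null liver, a difference of 0.92 (SE 0.33, adjusted p = 0.42). Fgf21, a fasting hormone secreted by liver under PPAR alpha, read 11.94, 11.47 and 9.63 in control and 12.28, 12.42 and 12.34 in null liver. Its null values were steady, while the second control pool lay under the low-signal level, and the difference was 0.64 between the first pools and 2.71 between the second (mean 1.68, SE 0.67, adjusted p = 0.49, limma).

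Signalling genes and transcription factors ranked on the higher side included Jun, Stat5a and Rasd1. Jun, a subunit of the AP-1 factor that responds to stress and growth signals, read 12.86, 12.22 and 12.11 in control and 14.08, 13.91 and 14.04 in null liver. The genotypes were separated on all arrays (difference 1.69, SE 0.54, adjusted p = 0.34, limma). Stat5a, which carries growth hormone and prolactin signals to the nucleus, read 11.05, 10.41 and 9.57 in control and 11.77, 12.04 and 11.81 in null liver (1.70, SE 0.44, adjusted p = 0.22), whereas its close relative Stat5b differed by -0.21 (SE 0.43). Rasd1, a Ras-like protein induced by glucocorticoids, was under the low-signal level on all 3 control arrays and over it on all null arrays, at least 1.89-fold (1.23, SE 0.48, adjusted p = 0.48). The kinase anchors Akap7 and Akap10, which tether protein kinase A, stood on opposite sides, at 1.39 (SE 0.71) and -0.88 (SE 0.37). The second pools of Akap7 read 8.63 in control and 9.78 in null liver, both under the low-signal level. Its fold was 1.37 with the dim arrays raised to that level. The orphan receptor gene Gpr173 differed by 1.68 but with an SE of 1.22, its second pools reading 7.86 in control and 9.75 in null liver, both under the low-signal level. Cebpb differed by 0.35 (SE 0.38) and 0.52 (SE 0.50) in its probes.

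**Figure D4:**
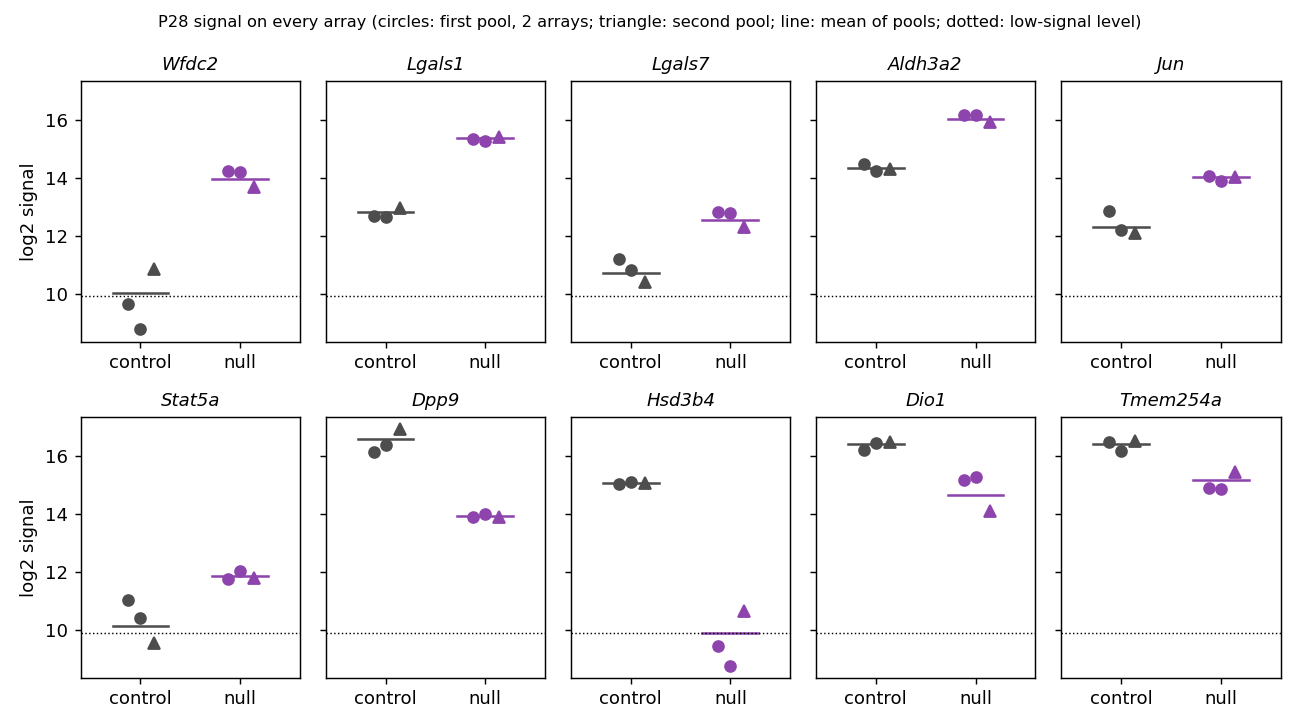
Log2 signal at P28 on every array for 10 named genes, with circles for the duplicate arrays of the first pool, triangles for the second pool, lines for the mean of the pools and a dotted line at the low-signal level of 9.91. Null arrays lie above all control arrays for Wfdc2, Lgals1, Lgals7, Aldh3a2, Jun and Stat5a, and below them for Dpp9, Hsd3b4, Dio1 and Tmem254a.

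Of the ranked genes, Lst1, Ear1 and Bcl2a1b are known from white blood cells, and were described here because their difference ranked high. Lst1, expressed in leukocytes, read 10.10, 10.59 and 10.11 in control and 11.46, 11.39 and 11.49 in null liver (difference 1.23, SE 0.33, adjusted p = 0.23, limma). Ear1, an eosinophil-associated ribonuclease, read 8.81, 10.96 and 11.52 in control and 12.26, 12.32 and 13.24 in null liver (2.06, SE 0.60, adjusted p = 0.28). Bcl2a1b, an anti-apoptotic protein of the Bcl2 family found in blood cells, read 12.80, 11.90 and 11.06 in control and 13.77, 13.60 and 14.08 in null liver (2.18, SE 0.53, adjusted p = 0.18). None of these passed the test. Of the 17 genes of the leukocyte marker list, Lst1 and Ear1 were measured, and of the 12 macrophage markers none. Hba-a1 of red cells differed by 0.13 (SE 0.34). Ear1 and Bcl2a1b have near-identical copies, and the number of leukocytes in these livers was not tested.

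The other ranked genes belong to no common list. On the higher side Crip1, a small LIM-domain protein, differed by 1.05 (SE 0.43) and Atox1, the copper chaperone that feeds the secretory pathway, by 0.78 (SE 0.46) at a high level of 18.46 in null liver. On the lower side Tmem254a, a transmembrane protein, read 16.46, 16.18 and 16.51 in control and 14.88, 14.87 and 15.45 in null liver. Its groups were apart by more than 0.7 units on every array (-1.25, SE 0.35, adjusted p = 0.26, limma). Dcdc5, a doublecortin-domain gene, was under the low-signal level on all null arrays, at least 2.46-fold lower (-2.02, SE 0.46, adjusted p = 0.16). The histone gene H2bc18 differed by -1.30 (SE 0.40) and Fam83g by -1.50 (SE 0.47), the latter with 1 of 3 null arrays at the level. Gga1, an adaptor that sorts cargo at the trans-Golgi, differed by -1.07 (SE 0.44), the ubiquitin ligase family members Rnf112 and Rnf169 by -0.88 (SE 0.44) and -0.73 (SE 0.34), the zinc finger gene Zkscan17 by -0.67 (SE 0.38), and Nars2, which charges mitochondrial tRNA with asparagine, by -0.85 (SE 0.77). Adjusted p ran from 0.16 to 0.85 for the 11 genes of this paragraph. The genotypes were apart on all 6 arrays for 12 of the 15 genes on the higher and 13 of the 15 on the lower side, against 15.5% and 14.7% of all probes at that level; the ranking used these same pools, so nothing is read from these counts. The remaining 92 named probes at this level that belong to no list differed by -0.92 to 0.92, with adjusted p of 0.42 or more.

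The pathway lists met few named probes. Of 413 genes in 23 lists, 18 were measured. Lists of the NCoR-HDAC3 complex, other histone deacetylases, nuclear receptors, bile acid synthesis, cholesterol synthesis, fatty acid synthesis, apolipoproteins, glycolysis, the urea cycle, fetal liver genes, the cell cycle and the circadian clock had none, so nothing is said of them here. The galectin list had 3 of 8 genes measured, of which 1 was called higher and 0 lower, against 0.251% and 0.145% of all probes. Its median difference of 1.84, against 0.00 over all probes, is the value of Lgals7, and Lgals2 was under the low-signal level. The lists were chosen with earlier results of these data known, and Lgals1 and Lgals7 are among the ranked rises. Nothing is therefore read from the call or the median of this list. The growth hormone list had 5 of 23 (Hsd3b4, Mup1, Nat8f2, Stat5a and Stat5b), with 0 called and a median of -0.21. The fatty acid oxidation list had 2 of 21 (Aldh3a2 and Fgf21), with 0 called and a median of 1.69. Single members were measured of the lists for lipid droplets, gluconeogenesis, cytochrome P450 and conjugation, thyroid hormone, hepatocyte identity, immediate early genes, apoptosis and insulin signalling, none of them called. The insulin signalling member, Eif4ebp1, was under the low-signal level on all 6 arrays.

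The P17 livers offer the same contrast in other mice, 11 days earlier, with pools that are not shared. At P17 15 probes (0.0454%) were called. The probes described here were chosen by their P28 difference, and their P17 values come from other pools. The 83 higher probes had P17 differences of -1.24 to 5.98 (median 1.30), above 0 in 78 and at least 1 unit in 53. The 48 lower probes had P17 differences of -3.37 to 1.64 (median -0.84), under 0 in 40 and at or under -1 in 22. At P17, 5 of the 83 and 0 of the 48 were called the same way, against 0.0454% of all probes called in either direction. Both ages share 1 estimate of the spread per probe, and a P28 call favours probes where it is small. The P17 calls are therefore not independent of the P28 calls, and the share over all probes is no fair measure for them. The shares of all probes with 1 sign at both ages are not given, so how unusual the sign counts are was not tested. Lgals1 differed by 1.61 (SE 0.38) at P17 and by 2.55 at P28, and Aldh3a2 by 1.41 (SE 0.33) at P17 and by 1.70 at P28. Wfdc2 differed by 0.17 (SE 0.58), Dpp9 by 0.15 (SE 0.36) and the unnamed mCG132777.1 by 0.52 at P17. Sult5a1 differed by 2.79 (SE 0.45) and G6pc by -1.10 (SE 0.35) at P17, each with the sign opposite to P28. None of Lgals1, Aldh3a2, Sult5a1 and G6pc was called at P17 (adjusted p = 0.45, 0.42, 0.15 and 0.84, limma).

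The test of the difference itself, the genotype effect at P28 minus that at P17, called 0 of 33011 probes (0%) in limma, with 1530 (4.63%) at an unadjusted p under 0.05. The smallest adjusted p was 0.062, for mCG132777.1, with a difference of -7.18 between the ages. For Wfdc2, Dpp9, Sult5a1 and G6pc the adjusted p of the difference was 0.56, 0.34, 0.34 and 0.69. With the replicate block by pool 2 probes were called and with eBayes trend and robust 39. No gene is therefore called particular to P28 here.

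**Figure D5:**
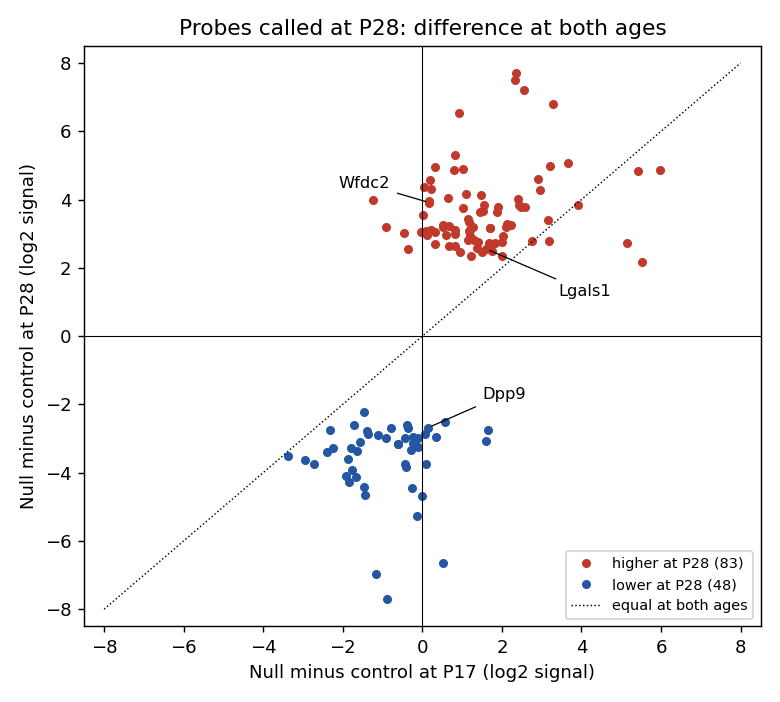
Null minus control at P17 (x axis) and at P28 (y axis), in log2 signal, for the 131 probes called at P28, with a dotted line where both are equal. Of the 83 probes higher at P28 (red) 78 lie right of 0, and of the 48 lower (blue) 40 lie left of it; Wfdc2 and Dpp9 lie close to 0 at P17.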

How the data were processed

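The authors deposited a value table of linear intensity, 33012 probes by 12 arrays. Its values share 1 distribution within each of 3 run sets (largest gap between cumulative distributions 0.00341, smallest between sets 0.182). The program that made them equal is not given in the sources used. Of 396144 cells, 2867 (0.724%) are empty. The 12 scanner files are copies of 3 exports of 4 arrays each. Their 52 columns of per-sample values carry no sample name and were not used.

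Intensities were quantile-normalized over 12 arrays and taken to log2 after values under the 5th percentile (174.7) had been set to it, and duplicate arrays of a pool were averaged. The low-signal level is the 60th percentile (965.1). Groups were fitted with limma 3.58.1 in R 4.3.3 (8 pools in 4 groups with no covariate, leaving 4 residual degrees of freedom, then eBayes), with Benjamini-Hochberg adjustment over all probes and calls at an adjusted p under 0.05. The fit was also run on simulated data with noise independent between pools. That simulation does not cover shifts shared by pools of the same number, which these data hold. An exact permutation test of 2 pools against 2 cannot go below p = 0.33, so none is given. A bound is the brighter group's mean over the dimmer group's mean with each array under the low-signal level raised to it.

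Probes were named through RefSeq transcript accessions without version (311) or a symbol or synonym (6). Named genes are those called with a symbol, the 15 largest recurring rises and falls above the low-signal level, list members, and 2 unnamed probes per direction. The members and lists were chosen with earlier results of these data known. Promoter windows come from RefSeq (GRCm38.p6), and the array's own build is not given. The number of arrays limits the precision.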

Additional observations from a re-analysis of the deposited data

How the results depend on the processing

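Counts are given as changed, higher and lower probes at P28, with 131, 83 and 48 as reported. Fewer were called with the run set as a block (5, 3 and 2), the deposited values without further normalization (13, 9 and 4), technical replicate 1 alone (65, 39 and 26) and technical replicate 2 alone (79, 48 and 31). The P28 pools alone gave 0, 0 and 0, with 2192 probes at an unadjusted p under 0.05. Scaling to the 75th percentile gave 54 higher of 89 called. More were called with the replicate block by pool number (246, 146 and 100), a mean signal at or above the low-signal level (370, 204 and 166) or the median (262, 152 and 110), and eBayes with trend and robust (409, 221 and 188). Leaving out 1 of 8 pools gave 0 to 28 changed, 0 to 17 higher and 0 to 11 lower. Where a P28 pool is left out, its group's lone pool is assumed to vary like the other groups. The genotype effect differed between ages for 0 probes, for 2 with the replicate block, 3 with an offset of 50 in place of the floor and 39 with trend and robust, and for 0 without any of the 8 pools. The cause of these shifts was not tested. Pool numbers in the labels do not pair mice, but first minus second pool gave r = 0.676 to 0.786 between pairs of groups over 12274 probes, 0.776 for the P28 groups.

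Quantile normalization within each age, the offset and, added after the data were seen, only probes with all 8 pools (134 called) stayed within 1.5 times of the reported counts. The share of probes with the same sign in both pools was 57.8% over all probes, against 72.1% at or above the low-signal level. The named genes and the unnamed targets with the largest changes gave 580 values under these settings. Of these, 546 kept their direction and side of the threshold, 24 lost a call, 9 gained one and 1 turned its sign. Lgals2 turned to 0.061 with technical replicate 2 alone, and ran from -0.877 to 0.562 with 1 pool left out, where 1 probe of Cebpb ran from -0.00475 to 1.04 and Mup1 from -0.661 to 0.258. None of these was called. Of 360 such values with 1 pool left out, 40 lost a call and 5 turned their sign.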
